A study of Homo sapiens with 4 samples.

Results

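Tumour cells carry surface proteins that restrain immune attack, and 10 genes of this kind are described here: CD274, PDCD1LG2, CD276, VTCN1, NT5E, CD47, CD46, CD55, CD59 and PVR. They were chosen by symbol, and each was found in 1 row of the 58233 gene rows of the deposited count table. All 10 were among the 13179 genes with enough counts to be tested. RNA-seq had been done on MCF10AT cells, mammary epithelial cells of human origin, derived from MCF10A and transformed by HRasG12V, an oncogenic HRAS. The 4 libraries form 2 groups of 2 replicates: the Bromo+/- libraries, called here by their genotype label, and the Non-target control. All 4 share a medium with donor horse serum, cholera toxin, hydrocortisone, insulin and epidermal growth factor, and the protocol given for all of them describes lentiviral shRNA delivery and puromycin selection. The labels do not spell out Bromo+/- further and name no clone, and within each group the column names share a number whose meaning is not given. No label says that the replicates were separate cultures, so p-values measure the spread between these libraries, which may be technical.

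The proteins act at different steps. CD274 (PD-L1) and PDCD1LG2 (PD-L2) are ligands of the inhibitory receptor PD-1 on T cells, and CD276 (B7-H3) and VTCN1 (B7-H4) are relatives of them in the B7 family. PVR (CD155) binds TIGIT, CD96 and CD226 on T cells and natural killer cells. NT5E (CD73) converts extracellular AMP to adenosine, which dampens lymphocytes, and CD47 binds SIRPA on macrophages and restrains phagocytosis. CD46, CD55 and CD59 guard host cells against complement: CD46 is a cofactor for cleavage of deposited C3b and C4b, CD55 speeds the decay of the C3 convertases, and CD59 blocks assembly of the membrane attack complex. Interferon-gamma, acting through JAK kinases and IRF1, is a well known inducer of CD274.

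The Bromo+/- libraries held 11975396 and 10953756 counts and the controls 10835237 and 11884715. The mitochondrial share of counts was 5.05% and 5.18% in the Bromo+/- libraries and 4.32% and 4.21% in the controls. The title and design text of the series speak of knockdown of EP300, an acetyltransferase gene, by shRNAs and of triplicates, whereas the labels give Bromo+/- and Non-target control in duplicate, so how Bromo+/- relates to EP300 is not settled by the labels. EP300 was higher in the Bromo+/- libraries, at 121 and 126 scaled CPM (counts relative to the scaled library size) against 106 and 111 in the controls (log2 fold change 0.19, adjusted p = 0.00701, edgeR). That call was lost without either control replicate (adjusted p = 0.162 and 0.0521, edgeR) and with the DESeq2 Wald test (adjusted p = 0.125). Markers of the labelled cell type differed strongly between the groups. All 9 tested mammary epithelial markers of 10 listed were lower, with a summed level of 1585 and 1547 CPM in the Bromo+/- libraries and 10550 and 10230 CPM in the controls, and KRT14 had no count in the Bromo+/- libraries and 162 counts in the controls. Fibroblast markers summed to 141 and 139.5 CPM against 43.5 and 41.6 CPM in the controls, with 3 of 4 tested higher and LUM at 0. The fourth, FAP, was lower, at 16.8 ± 0.09 CPM against 38.3 ± 0.90 CPM in the controls (SD, n = 2 each), and made up most of the control sum. Leukocyte markers, whose cells carry several of these proteins too, summed to 5.13 and 4.51 CPM against 14.5 and 13.3 CPM, nearly all of it CD14 and CSF1R, while PTPRC had 1 count in all 4 libraries and CD3E and MS4A1 had none. Of 6 endothelial markers 2 were tested, KDR higher, with sums of 3.74 and 4.42 CPM against 4.58 and 3.11 CPM in the controls and VWF at 0. Calls for CD14 (without Non-target control replicate 1) and KDR (without either replicate 2) did not hold. Neither CD14 nor KDR passed by the DESeq2 Wald test (adjusted p = 0.130 and 0.218). KRT14, TP63, KDR, DCN and POSTN passed the filter on low counts through 1 group alone, which fixed their direction. The part of these marker and mitochondrial shifts in the results below was not tested. Fewer cells of a type and less RNA per cell cannot be told apart in bulk RNA.

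Of the 10 genes, 7 were lower and 2 were higher in the Bromo+/- libraries at an adjusted p under 0.05, and CD59 did not pass (edgeR's quasi-likelihood test, Benjamini-Hochberg adjustment over all genes tested). Over all genes tested 27.1% were lower and 26.4% higher at that threshold, 53.5% in either direction. Scaling by library size alone, which gave 4430 genes higher and 2800 lower in place of 3485 and 3570, left 2 higher and 6 lower among the 10. The median log2 fold change of the 10 was -0.33, against 0.01 over all genes tested. For all 10 genes the CPM ranges of the groups did not overlap, which held for 75.2% of all genes tested. The falls were of unequal size. CD274, PDCD1LG2 and VTCN1 were lower by 2-fold or more, as were 7.53% of all genes tested, and the other 7 genes differed by less than 1.5-fold. VTCN1 had only 1 count in the Bromo+/- libraries and passed the filter on low counts through the controls alone, so a difference in it was bound to follow.

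**Figure D1:**
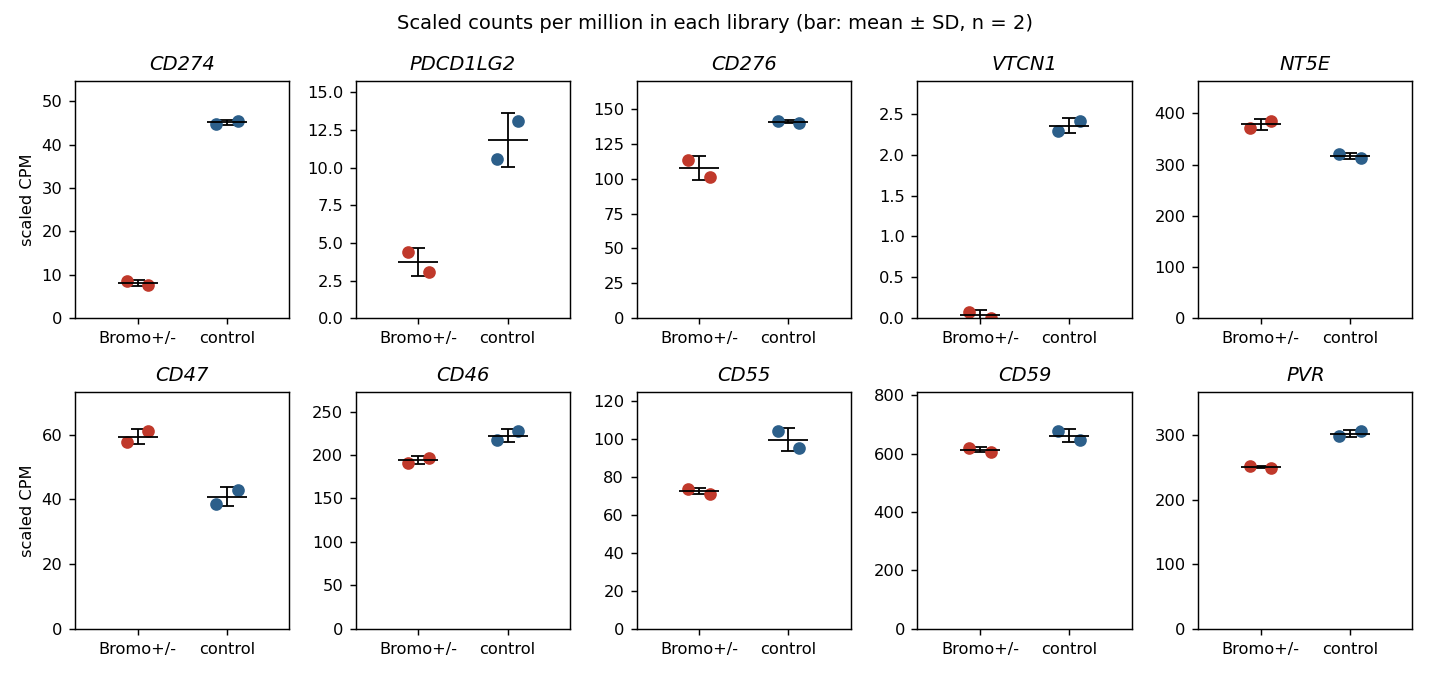
Scaled CPM of each gene in each library, on a linear axis from 0, with Bromo+/- libraries left and controls right. Points are libraries and the bar is the mean with its SD (n = 2). CD274, PDCD1LG2 and VTCN1 stand far below their control level, NT5E and CD47 stand above it, and the groups do not overlap in any panel.

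The ligands of PD-1 were both lower. Read counts of CD274 were 105 and 87 in the Bromo+/- libraries and 470 and 528 in the controls, which is 8.54 and 7.69 scaled CPM against 44.8 and 45.6 CPM. Replicates lay within 1 CPM of each other in both groups, and the gap between groups was many times that. The log2 fold change was -2.47 (SE 0.12, adjusted p = 4.36e-59), a level 5.55-fold lower, and 3.00% of all genes tested had a lower log2 fold change. PDCD1LG2 had 54 and 35 counts, or 4.39 and 3.09 CPM, in the Bromo+/- libraries and 111 and 152 counts, or 10.6 and 13.1 CPM, in the controls. Its replicates spread more than those of CD274 at these smaller counts, yet the groups stood apart. Its log2 fold change was -1.66 (SE 0.19, adjusted p = 1.58e-16), a level 3.15-fold lower. CD274 lies on the plus strand of chromosome 9 (GRCh38, 5450503 to 5470566), and PDCD1LG2 follows it on the same strand (5510570 to 5571254) after a gap of 40.0 kb.

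CD276 was the most abundant of the 4 B7 ligands per length and fell less. It stood at 114 and 101 CPM in the Bromo+/- libraries and at 142 and 140 CPM in the controls (chromosome 15, 73683966 to 73714518, plus strand). The controls were nearly equal and the lower group was more spread, and the log2 fold change was -0.39 (SE 0.06, adjusted p = 6.67e-09). VTCN1 was the rarest of the 10, with 1 and 0 counts in the Bromo+/- libraries against 24 and 28 in the controls (chromosome 1, 117143587 to 117210960, minus strand). The controls were 55.6-fold higher, with a 95% exact binomial interval of 9.55 to 2239 that covers counting error only and hardly bounds the size, and edgeR's adjusted p was 2.27e-13. As the filter fixed that VTCN1 would be lower, its direction and p are given as a description. At 0 counts in a library, up to 3 counts, or 0.265 CPM in Bromo+/- replicate 2, cannot be told from none.

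Per length, the 4 B7 ligands together gave 88.2 and 79.0 TPM (counts divided by gene length and expressed as parts of the library total) in the Bromo+/- libraries and 144 and 151 TPM in the controls. CD276 made up 83.8% and 85.2% of that sum in the Bromo+/- libraries, against 61.3% and 59.2% in the controls. The share of CD274 was 8.50% and 8.72% against 26.2% and 25.9%. The mix of B7 ligand transcripts thus held relatively more CD276 and less CD274 in the Bromo+/- libraries, while CD276 itself was lower there.

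**Figure D2:**
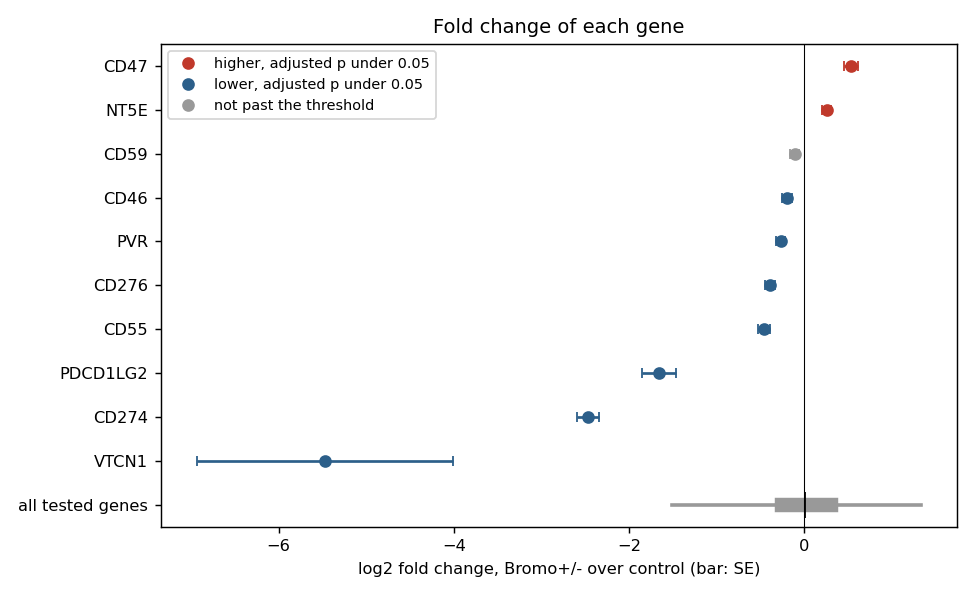
Log2 fold change of Bromo+/- over control for each gene, with its SE, ordered from the highest at the top. Grey at the bottom shows all 13179 genes tested (thin bar from the 5th to the 95th percentile, -1.51 to 1.34, thick bar the quartiles, -0.25 to 0.31). CD274, PDCD1LG2 and VTCN1 lie below the 5th percentile and the other 7 lie between -0.46 and 0.54.

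Upstream sequence is shown for CD274 as the well-counted gene that fell most, for VTCN1 as the gene nearly without counts in one group, and for CD47 as the gene that rose most. Each stretch runs from 250 bases before to 50 bases after the RefSeq gene start (GRCh38.p14). Capitals mark matches on either strand to the interferon-stimulated response element core (GAAA, any 2 bases, GAAA), the interferon-gamma activated GAS element (TTC, any 3 bases, GAA), the AP-1 site TGANTCA, the GC box GGGCGG and the E-box CACCTG bound by ZEB proteins.
CD274, chr9:5450292-5450591, plus strand: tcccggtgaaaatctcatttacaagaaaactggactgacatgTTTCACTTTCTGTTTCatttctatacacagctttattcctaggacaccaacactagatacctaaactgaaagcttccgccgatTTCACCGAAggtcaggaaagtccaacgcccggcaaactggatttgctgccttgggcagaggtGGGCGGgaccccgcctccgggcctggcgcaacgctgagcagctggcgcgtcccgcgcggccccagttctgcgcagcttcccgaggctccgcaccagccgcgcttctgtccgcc
VTCN1, chr1:117210878-117211177, minus strand: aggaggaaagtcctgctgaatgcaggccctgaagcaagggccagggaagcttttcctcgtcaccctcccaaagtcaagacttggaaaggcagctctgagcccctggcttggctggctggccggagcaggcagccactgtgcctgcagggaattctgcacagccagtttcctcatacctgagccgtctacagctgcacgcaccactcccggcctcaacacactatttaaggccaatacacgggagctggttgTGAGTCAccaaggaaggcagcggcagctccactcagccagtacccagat
CD47, chr3:108090982-108091281, minus strand: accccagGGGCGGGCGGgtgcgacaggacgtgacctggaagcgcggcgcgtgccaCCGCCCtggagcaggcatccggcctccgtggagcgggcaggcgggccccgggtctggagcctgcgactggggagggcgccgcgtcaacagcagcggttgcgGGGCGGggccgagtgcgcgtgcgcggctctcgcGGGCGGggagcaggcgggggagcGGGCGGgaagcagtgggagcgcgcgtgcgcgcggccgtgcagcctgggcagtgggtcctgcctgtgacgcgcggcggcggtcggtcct

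The RefSeq table held such a stretch for 9 of the 10 genes. The response element core was found in CD274 alone among the 9, as a pair of overlapping matches that begin 208 and 202 bases before the start, and in 3.57% of 35116 gene starts of the same length. CD274 also held a GAS element 125 bases before the start, as did CD59 at 128 bases, against 7.66% of all starts. The AP-1 site was found in VTCN1 alone, just after the start, against 7.71% of all. GC boxes were found in 7 of the 9, all but VTCN1 and PVR, against 45.0% of all, and the ZEB-type E-box in CD46 and PVR, against 20.6%. Also searched were GGG, any 5 bases and CC for NF-kB, found in 8 of the 9 and in 58.7% of all starts and overlapping some GC boxes, TGACG of the cyclic AMP response element, found in 5 of the 9 and in 24.6%, and TATAAA, found in none of the 9 and in 11.5%. CD47 held 45 CpG dinucleotides in its 300 bases, CD274 held 22 and VTCN1 held 7, against a median of 14 over all starts. A match describes letters and not binding, and no factor was measured.

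NT5E and CD47 were the genes that rose. NT5E stood at 371 and 386 CPM in the Bromo+/- libraries and at 320 and 312 CPM in the controls (chromosome 6, 85449584 to 85495791, plus strand). The lower of the Bromo+/- libraries was well above the higher control, and the log2 fold change was 0.26 (SE 0.05, adjusted p = 3.87e-06), a rise of 19.7% in mean CPM. CD47 had 709 and 690 counts against 406 and 497, or 57.7 and 61.0 CPM in the Bromo+/- libraries against 38.7 and 42.9 CPM in the controls (chromosome 3, 108043298 to 108091025, minus strand). With replicates about 4 CPM apart at most, the log2 fold change was 0.54 (SE 0.08, adjusted p = 4.32e-10), a rise of 45.5% in mean CPM. Gene-level counts do not separate the splice forms of CD47, for which GENCODE v29 lists 5 protein-coding transcripts.

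PVR fell slightly. It was measured at 252 and 249 CPM in the Bromo+/- libraries and at 298 and 306 CPM in the controls (chromosome 19, 44643798 to 44663583, plus strand). Replicates were close and the groups apart; the log2 difference was -0.27 (SE 0.05, adjusted p = 2.38e-06). PVR shares 121 exonic bases with CEACAM19 on the same strand, which had 459 counts in all 4 libraries against 12589 for PVR.

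Among the complement shields CD55 and CD46 fell and CD59 did not pass. CD55 stood at 73.6 and 71.4 CPM in the Bromo+/- libraries and at 104 and 95.5 CPM in the controls (chromosome 1, 207321508 to 207386804, plus strand). Its log2 fold change was -0.46 (SE 0.07, adjusted p = 5.54e-10), the largest fall of the 3 shields. CD46 lies 365.3 kb further on the same strand (207752057 to 207795513) and stood at 191 and 197 CPM against 217 and 227 CPM in the controls. Its log2 fold change of -0.20 (SE 0.05, adjusted p = 0.001) was no longer past the threshold with scaling by library size alone (-0.11, adjusted p = 0.0664) or without Non-target control replicate 2 (-0.17, adjusted p = 0.0767, edgeR). CD59, on the minus strand of chromosome 11 (33698261 to 33736445), had 618 and 607 CPM in the Bromo+/- libraries and 676 and 646 CPM in the controls. The gap between the higher Bromo+/- library and the lower control was about as large as the gap between the control replicates, and the difference was -0.11 on the log2 scale (SE 0.05, adjusted p = 0.0553). The call for CD59 depended on the setting, with adjusted p between 0.0172 and 0.664 over the alternatives, and past the threshold in 4 of 12. CD59 shares 254 exonic bases with C11orf91, which had 12 counts in all 4 libraries.

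Together the 3 shields gave 578 and 582 TPM in the Bromo+/- libraries and 625 and 614 TPM in the controls. CD59 made up most of the sum, 78.1% and 77.6% against 75.8% and 75.2% in the controls. NT5E, CD55 and CD59, which are held at the surface by a glycosylphosphatidylinositol (GPI) anchor, did not move together: NT5E was higher, CD55 lower and CD59 not past the threshold. Of 27 tested genes of GPI anchor synthesis and attachment 19 did not pass, 5 rose and 3 fell, with a median log2 fold change of 0.04, where 53.5% of all genes tested passed. Among these 27, 8 were higher and 1 lower when libraries were scaled by their size alone, and 3 were higher and 1 lower by the DESeq2 Wald test. PIGA, part of the enzyme of the first step, fell to 12.1 ± 0.79 CPM, against 20.8 ± 3.66 CPM in the controls (SD, n = 2 each), and the anchor remodelling genes PGAP1 (log2 fold change 0.99) and PGAP3 (0.98, its exons overlap ERBB2) and the transamidase gene PIGT (0.29) rose. Of the 3 falls only that of PIGA remained without Non-target control replicate 1.

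**Figure D3:**
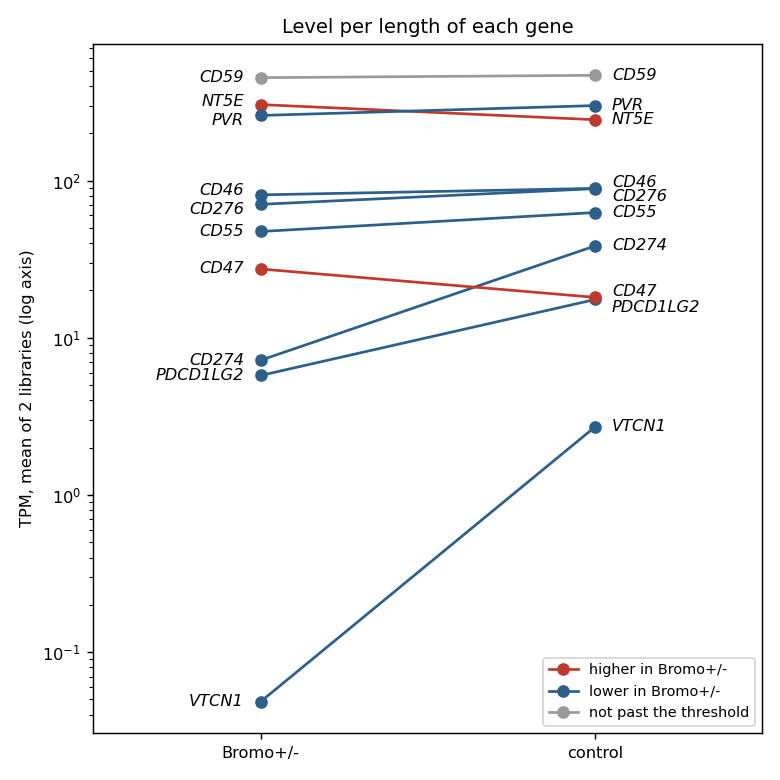
Mean TPM of each gene in the Bromo+/- libraries (left) and in the controls (right), on a log axis, with lines joining the same gene. CD59 is highest and VTCN1 lowest in both groups, CD274 lies above CD47 in the controls and below it in the Bromo+/- libraries, and the left point of VTCN1 rests on 1 count.

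Levels between genes were compared per length. In the Bromo+/- libraries the order of mean TPM was CD59 (452), NT5E (304), PVR (259), CD46 (81.1), CD276 (70.6), CD55 (47.4), CD47 (27.4), CD274 (7.20), PDCD1LG2 (5.76) and VTCN1 (0.048), and the ranges of neighbours did not overlap. In the controls it was CD59 (467), PVR (300.0), NT5E (244), CD46 (89.2), CD276 (88.9), CD55 (62.6), CD274 (38.4), CD47 (18.1), PDCD1LG2 (17.5) and VTCN1 (2.72). There the ranges of CD46 and CD276 overlapped, as did those of CD47 and PDCD1LG2. CD59, NT5E and PVR were among the more abundant transcripts of both groups: CD59 lay above 98.2% of the genes tested in each. CD274 lay above 29.2% of the genes tested in the Bromo+/- libraries and above 68.4% in the controls.

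Of 13 other genes listed for the B7 and butyrophilin families 7 were tested, and 2 rose, 1 fell and 4 did not pass (median log2 fold change 0.13). This and the lists below are to be read against the 26.4% of all genes tested that were higher and the 27.1% that were lower. In these lists ENPP1, ITGB3, CD226, ULBP1, C1R and C5AR1 passed the filter on low counts through the Bromo+/- libraries alone and RAET1L and ICAM1 through the controls alone, so that their direction was fixed by the filter and they are counted as a description. NCR3LG1 (B7-H6), a ligand of the activating receptor NKp30 on natural killer cells, stood at 34.3 and 41.4 CPM in the Bromo+/- libraries and at 8.77 and 7.94 CPM in the controls (log2 fold change 2.18, SE 0.13, adjusted p = 1.79e-46). BTN3A3, a butyrophilin with close paralogues whose counts may be split, rose by 1.62 on the log2 scale. VSIR (VISTA), an inhibitory B7 relative, fell to 23.7 ± 2.80 CPM, against 40.1 ± 0.25 CPM in the controls (SD, n = 2 each). The T cell costimulators CD80 and CD86 had 0 and 2 counts in all 4 libraries.

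Genes that act on CD274 moved both ways. Of 13 tested genes of interferon-gamma signalling and PD-L1 stability 5 fell, 3 rose and 5 did not pass (median -0.07). IRF1, the transcription factor that acts on the interferon response element of CD274, fell to 14.9 ± 0.86 CPM, against 23.4 ± 1.06 CPM in the controls (log2 fold change -0.65, SD, n = 2 each); its exons overlap an antisense RNA with few counts. CMTM6 and CMTM4, membrane proteins that protect PD-L1 from degradation, fell by 0.21 and 0.62 on the log2 scale. The exons of CMTM6 overlap CMTM7, and with scaling by library size alone CMTM6 missed the threshold (-0.12, adjusted p = 0.0991, edgeR). STAT3 fell by 0.26. The receptor chains IFNGR1 (0.71) and IFNGR2 (0.64, its exons overlap TMEM50B) rose. JAK2 stood at 11.7 ± 0.33 CPM in the Bromo+/- libraries against 12.6 ± 0.20 CPM in the controls (SD, n = 2 each), not past the threshold. Without Non-target control replicate 2 the falls numbered 3, CMTM6 (adjusted p = 0.0935, edgeR) no longer among them. Transcript levels do not show whether the pathway was active.

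**Figure D4:**
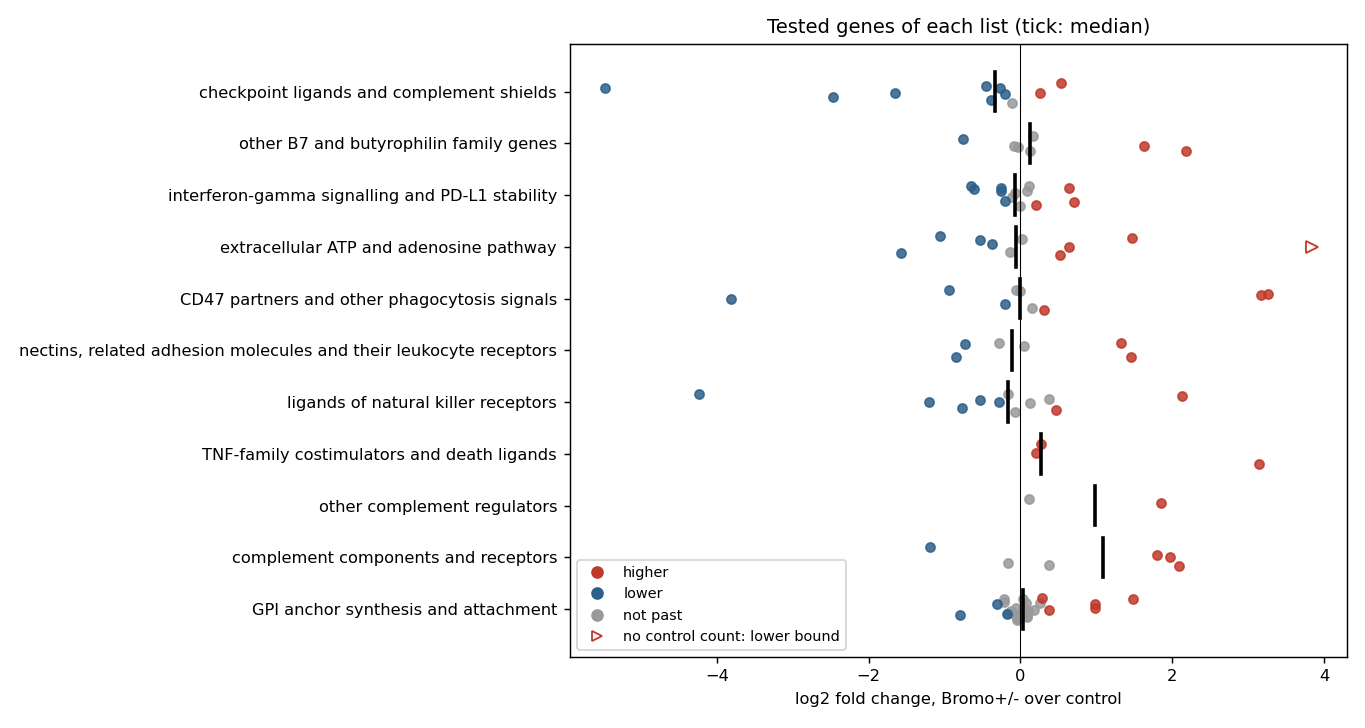
Log2 fold change of Bromo+/- over control for the tested genes of each list, with red for higher, blue for lower and grey for not past the threshold, and a tick at the median. ENPP1, with no control count, is drawn as an open triangle at its lower bound. The 10 genes of the top row have a median of -0.33, and most other lists have genes on both sides of 0.

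Around NT5E, the adenosine pathway had 4 genes higher, 4 lower and 2 not past the threshold of 10 tested (median -0.06). ENTPD2, an ectonucleotidase that acts upstream on ATP, fell to 10.7 ± 0.69 CPM, against 31.9 ± 1.60 CPM in the controls (log2 fold change -1.58), and ENTPD1 (CD39), which feeds AMP to NT5E, rose by 0.52, with replicates far apart in the Bromo+/- libraries (6.40 ± 2.95 CPM against 4.39 ± 0.14 CPM) and an antisense RNA over its exons. Without Bromo+/- replicate 2 the log2 fold change of ENTPD1 was -0.03 (adjusted p = 0.938, edgeR), and it also missed the threshold without either control replicate (0.0987 and 0.0719). ENPP1, another enzyme that makes AMP from ATP, had 46 counts in the Bromo+/- libraries and none in the controls. Set against 3 counts for the control group, that is at least 14.3-fold higher. Downstream, the adenosine receptor gene ADORA2B fell by 0.53 and the nucleoside transporter gene SLC29A2 by 1.07 on the log2 scale, and ADORA1 (1.47) and ADA (0.64), which encodes the enzyme that removes adenosine, rose.

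Among partners of CD47 and other signals to phagocytes 3 of 9 tested genes rose and 3 fell (median 0.00). CD24, another restraint on phagocytosis through SIGLEC10, fell to 17.7 ± 0.20 CPM, against 250 ± 6.20 CPM in the controls (log2 fold change -3.82); pseudogenes close to it in sequence leave its count uncertain. CD24 is known as an epithelial surface gene too, and the tested epithelial markers were also lower. Any link between these falls was not tested. THBS1, a secreted ligand of CD47, fell to 2891 ± 31.0 CPM, against 5554 ± 96.0 CPM in the controls (-0.94). QPCTL, whose enzyme modifies CD47 for binding to SIRPA, rose by 0.31, its exons overlapping the abundant SNRPD2, and LRP1, a receptor for the prophagocytic signal calreticulin, rose by 3.26. ITGB3, an integrin chain that associates with CD47, had 31 counts in the Bromo+/- libraries and 3 in the controls, a control level 0.104 times the Bromo+/- level (95% exact interval 0.0203 to 0.332, for counting error only). It passed the filter through the Bromo+/- libraries alone, so its count among the genes that rose is no support for a rise. CALR and SIRPA did not pass the threshold. QPCTL did not pass by the DESeq2 Wald test (adjusted p = 0.164). It also lost its call without Bromo+/- replicate 1 (log2 fold change 0.23) and without Non-target control replicate 2 (0.27). Without Bromo+/- replicate 1 ITGB3 had too few counts to be tested, which left LRP1 as the gene that rose.

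Relatives of PVR and ligands of natural killer receptors showed both directions. Of 6 tested genes of the nectin list NECTIN2 (-0.84), like PVR a ligand of CD226, and NECTIN1 (-0.73) fell, NECTIN3 (1.33) and CD226 (1.46) rose, and 2 did not pass. CD226 had levels under 1 CPM and lost its call without any one of the 4 libraries (adjusted p from 0.106 to 0.262, edgeR), leaving 1 gene higher. TIGIT had no count. Of 11 tested natural killer ligands 5 fell, 2 rose and 4 did not pass (median -0.17). MICA fell to 48.0 ± 3.41 CPM, against 69.2 ± 0.71 CPM in the controls, and MICB to 31.9 ± 0.40 CPM, against 54.5 ± 2.00 CPM (SD, n = 2 each), both stress ligands of the receptor NKG2D, with RAET1L (-4.23) and HLA-E (-0.29) also lower. Counts of MICA, MICB, RAET1L and HLA-E are uncertain because each has close relatives. The genes that rose were ULBP1 (2.13) and ULBP3 (0.47). ULBP1, with 14 and 15 counts in the Bromo+/- libraries and 2 and 4 in the controls, did not pass by the DESeq2 Wald test (adjusted p = 0.103). ULBP3 lost its call without any one library (adjusted p from 0.0812 to 0.195, edgeR). In the list of TNF-family costimulators and death ligands the 3 tested genes of 10 rose: CD70, a ligand of CD27, to 15.6 ± 1.30 CPM, against 1.77 ± 0.06 CPM in the controls (log2 fold change 3.14), TNFSF9 (0.27) and FAS (0.21, its exons overlap ACTA2). Only CD70 kept its call without Bromo+/- replicate 2 or without either control replicate, and TNFSF9 lost it without Bromo+/- replicate 1 as well (adjusted p = 0.0651, edgeR).

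Few other complement genes were transcribed. Of 14 other complement regulators 2 were tested and 7 had no count in any library. CLU (clusterin), a soluble inhibitor of the membrane attack complex, rose to 43.1 ± 2.20 CPM, against 11.8 ± 1.79 CPM in the controls (log2 fold change 1.86), and C1QBP stood at 403 ± 15.2 against 373 ± 21.6 CPM without passing. C1QBP passed without Bromo+/- replicate 2 (adjusted p = 0.0131), with the replicate block (0.022), with upper quartile scaling (0.00288) and with scaling by library size alone (0.000605, adjusted p by edgeR throughout). Of 23 complement components and receptors 6 were tested. C3, the central component, fell to 41.4 ± 2.48 CPM, against 94.5 ± 4.14 CPM in the controls (-1.19), and C5 (2.08), C1R (1.97, its exons overlap C1RL) and C5AR1 (1.79) rose, all at low levels. By the DESeq2 Wald test neither C1R nor C5AR1 passed (adjusted p = 0.126 for each), nor did C5AR1 by edgeR without Non-target control replicate 2 (adjusted p = 0.0525). No count was found for C6, C7, C8A, C8B and C9 of the membrane attack complex.

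**Figure D5:**
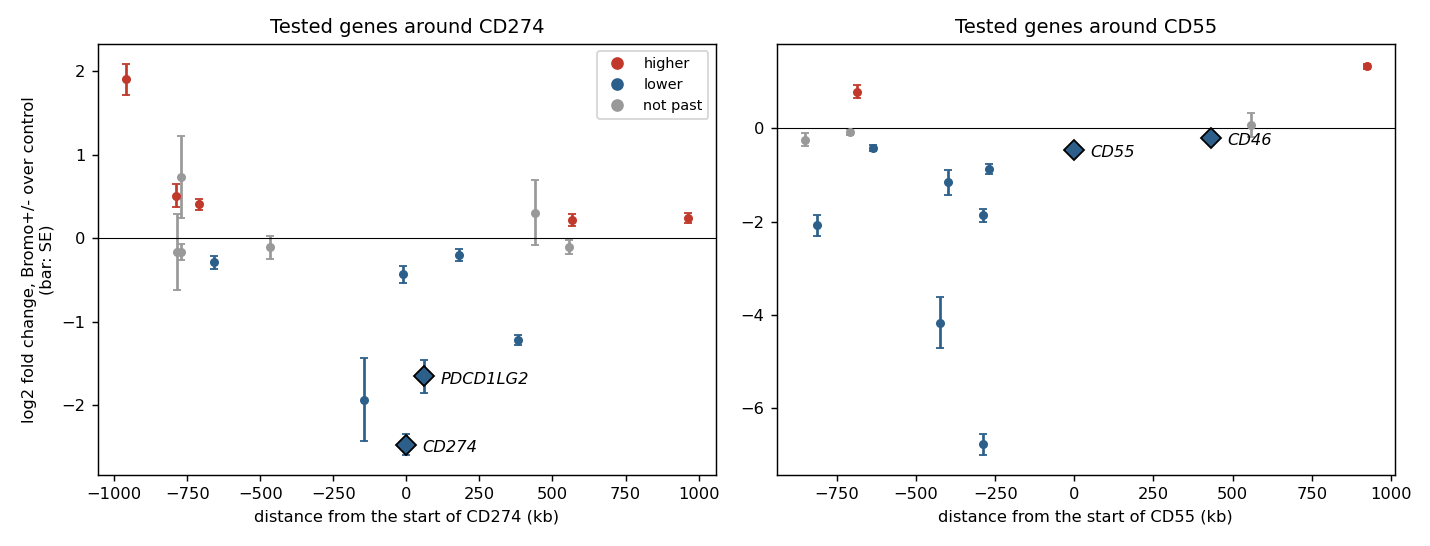
Log2 fold change with its SE of the tested genes that start within 1000 kb of the start of CD274 (left, 18 genes) or CD55 (right, 14 genes), by distance from that start. Diamonds mark CD274 and PDCD1LG2, and CD55 and CD46. CD274 is the lowest of its window, and CD55 and CD46 lie closer to 0 than several lower neighbours.

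The neighbours of these genes were read for position. Within 1 Mb of the start of CD274, 18 tested genes, CD274 and PDCD1LG2 among them, split into 7 lower, 5 higher and 6 not past the threshold. PLGRKT, the nearest tested gene on the other side of CD274 at 12.6 kb, fell by 0.43, and RIC1, beyond PDCD1LG2, by 0.20 on the log2 scale. Larger falls in the window were those of RLN2 (-1.93, with a mean of 0.462 CPM in the Bromo+/- libraries and 1.81 CPM in the controls) and ERMP1 (-1.21). At that Bromo+/- mean RLN2 could not pass the filter on low counts through the Bromo+/- libraries alone. It is counted among the lower genes as a description. Around CD55, 9 of 14 tested genes, CD55 and CD46 among them, were lower and 2 were higher, and PFKFB2, the nearest on the far side of CD55 at 240.5 kb, fell by 1.86. IL24, among the lower genes there, had a mean of 0.336 CPM in the Bromo+/- libraries and 6.33 CPM in the controls. It could not pass the filter through the Bromo+/- libraries alone either, and is counted as a description. Both windows are to be read against the 27.1% of all genes tested that were lower and the 26.4% that were higher. VTCN1 lay between genes that rose, TRIM45 (0.68) and MAN1A2 (0.49). CD47 lay next to IFT57, which rose by 0.65, and BBX, which rose by 0.16. The calls for RIC1, TRIM45 and BBX each ended without at least 1 of the 4 libraries (highest adjusted p = 0.147 for RIC1, 0.0692 for TRIM45 and 0.361 for BBX, edgeR). CD59 lay between FBXO3 (-0.43), which fell at a distance of 4.5 kb, and KIAA1549L (0.63), which rose at 24.2 kb. Of the neighbours of CD276, NPTN (-0.16) fell and LOXL1-AS1 did not pass. By the DESeq2 Wald test neither KIAA1549L nor NPTN passed (adjusted p = 0.152 and 0.116). MIR29B2CHG, beside CD46, did not pass. Both neighbours of NT5E and of PVR were not past the threshold.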

How the data were processed

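RNA of 4 MCF10AT libraries was read with a stranded poly(A) kit, per the labels' protocols. The authors deposited raw read counts and gene lengths (another unit, bases) per Ensembl gene; STAR (no version stated) on GRCh38 and featureCounts 1.5.2 were used, per the submitters' processing notes. The annotation release, the strand setting and how multi-mapped reads were treated were not given in the sources used here. Columns were matched to samples by name, WT columns to the Non-target control, with 0 columns left over. Symbols came from current names (57392 of 58233 identifiers) or GENCODE v29 (503).

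The count analysis used edgeR 4.0.16 under R 4.3.3: filterByExpr, TMM scaling (factors 1.03, 1.03, 0.968 and 0.975), robust quasi-likelihood test without a replicate block, adjusted p of 0.05 over all genes. SEs come from the working weights of the fit and the moderated dispersion. TPM used the deposited lengths. Across genes, log2 CPM correlated with Pearson's r of 0.995 within groups. Chi-square per degree of freedom was 2.58 (Bromo+/-) and 1.61 (controls), so replicates differed by more than sampling noise. All libraries were kept. Totals put 3 counts at 0.244 to 0.286 scaled CPM.

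On simulated counts over 12925 genes the test called 52 of 67 genes changed by 0.5 (log2), 64 of 67 changed by 1, 66 of 66 changed by 2, and 12 of 12725 unchanged. Few genes were changed there, in random directions and with spread taken from the trend, whereas 53.5% of genes tested were called in the data. The simulation therefore does not give the share of false calls in these data. Genes and lists were chosen with earlier results of these data known. Named besides the 10 genes are up to 4 genes per list with the smallest adjusted p, genes of spelled-out small counts, and nearest tested neighbours; JAK2, CMTM6, STAT3, CALR, SIRPA, C1QBP, ADORA1, ADA, ENTPD1, ENPP1, ITGB3, QPCTL, TIGIT, CD80 and CD86 were named for their role, with values seen. Some listed genes are not reported here. Alternatives were DESeq2 1.42.0 (size factors, Wald test), other scalings and filters, no robust step, a replicate block and leaving out each library.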

Additional observations from a re-analysis of the deposited data

How the results depend on the processing

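All 10 genes kept the sign of their log2 fold change under all 12 alternatives, and 8 of them also kept their side of the threshold. CD46 and CD59 did not. CD46 was no longer past it with library size alone (-0.11) or without Non-target control replicate 2 (adjusted p = 0.0767, edgeR); with 1 library left out its log2 fold change lay between -0.23 and -0.17. CD59 passed with no filter (-0.12, adjusted p = 0.0457), with the DESeq2 Wald test (-0.13, adjusted p = 0.0499), with the replicate block (-0.11, adjusted p = 0.0172) and without Bromo+/- replicate 1 (adjusted p = 0.0346), and lay between -0.15 and -0.08 with 1 library left out. The cause was not tested. Members lower numbered 6 to 8 over the alternatives and members higher always 2. Over all genes the DESeq2 Wald test called 1941 higher and 2516 lower (4457 against 7055 in edgeR); the other 11 alternatives stayed within 1.5-fold.

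The replicate numbers do not show a pairing: deviations of same-numbered libraries from their group means correlated at 0.05 across genes. With the replicate block 7271 genes were called, and CD59 was the only one of the 10 whose call changed. Leaving out 1 library leaves a group of 1, which is assumed to vary like the other. VTCN1 rests on 1 count in the Bromo+/- libraries, and its log2 fold change ran from -7.72 to -4.68 with 1 library left out. PDCD1LG2 ran from -1.94 to -1.44. In the other lists, genes higher numbered 1 to 2 for nectins, 0 to 2 for natural killer ligands (0 with the DESeq2 Wald test), 1 to 3 for the TNF list (CD70 alone with the DESeq2 Wald test) and 3 to 8 for GPI anchor genes. GPI anchor genes lower numbered 1 to 4.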
